A study of Homo sapiens with 42 samples.

Results

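The regions described here are the accessible regions that the study's annotation assigned to 10 genes of the lung alveolar lineage: NKX2-1, FOXA1, FOXA2, GATA6, CEBPA, HOPX, SFTA3, SFTPB, SFTPC and NAPSA. They were found by gene symbol in the annotated region tables of 4 cell lines. There were 139 such regions of 242490, with 28 of 69565 in PC9, 39 of 76952 in H1975, 18 of 30709 in HCC827 and 54 of 65264 in HCC2935. Each line has its own set of regions, and merging those that overlap gave 76 distinct sites. SFTA3 held 19 of these sites, FOXA1 17, HOPX 12, CEBPA 8, FOXA2 6, GATA6 6, NKX2-1 4, NAPSA 3 and SFTPB 1. SFTPC had no annotated region in any of the lines.

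PC9, H1975, HCC827 and HCC2935 are human lung adenocarcinoma lines that carry activating EGFR mutations. The data are 42 ATAC-seq libraries, 3 in each of 14 groups, which read how open the chromatin was. DMSO cells were kept 21 days without drug and then 3 days in DMSO. Drug-tolerant persister cells, labelled DTP, were kept in 500 nM of the EGFR inhibitor osimertinib for 24 days. The combo cells had 21 days of osimertinib and then 3 days of the inhibitor AZD5153 at 150 nM. PC9 and H1975 also had a group given 3 days of AZD5153 after 21 days without osimertinib. The labels do not say whether osimertinib stayed on during the AZD5153 days, and do not name separate cultures, so p-values measure only the spread between these libraries. The titles give ATAC-seq, but the protocol text submitted for the same libraries is that of an H3K27ac immunoprecipitation. A DTP population is what was left after weeks of drug, and selection of cells and change within cells cannot be told apart.

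NKX2-1 (TTF-1) is the homeodomain factor that specifies the lung and keeps the surfactant program active in adult alveolar type II cells. FOXA1 and FOXA2 are forkhead factors that can open compacted chromatin, and with GATA6 they act on the promoters of surfactant genes. CEBPA is a leucine zipper factor of type II cell maturation, and HOPX is a homeodomain protein without DNA binding that marks alveolar type I cells. SFTPB and SFTPC encode the hydrophobic surfactant proteins, and NAPSA encodes napsin A, the protease that processes them. SFTA3 is a gene beside NKX2-1, listed by RefSeq as a long noncoding RNA whose body spans the NKX2-1 flank.

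Promoter sequences are shown for 3 starts because the regions over them carry the results on NKX2-1, SFTA3 and HOPX below. Each is the stretch of 250 bases before a RefSeq start in GRCh38.p14, on the minus strand, read 5′ to 3′. The first NKX2-1 start (chr14:36520233-36520482) precedes the RefSeq start inside the first of 2 NKX2-1 promoter regions. The second (chr14:36519557-36519806) precedes a start that RefSeq gives to both NKX2-1 and SFTA3. The third (chr4:56681297-56681546) lies inside the HOPX promoter region. Capitals mark matches to a FOXA motif (TGTTTAC) and to a GATA motif (AGATAA, here as its reverse complement).
NKX2-1 first start: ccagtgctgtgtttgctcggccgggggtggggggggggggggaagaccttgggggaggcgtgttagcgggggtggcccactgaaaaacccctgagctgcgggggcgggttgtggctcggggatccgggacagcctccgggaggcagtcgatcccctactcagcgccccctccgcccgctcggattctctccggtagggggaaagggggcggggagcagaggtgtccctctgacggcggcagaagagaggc
NKX2-1 and SFTA3 shared start: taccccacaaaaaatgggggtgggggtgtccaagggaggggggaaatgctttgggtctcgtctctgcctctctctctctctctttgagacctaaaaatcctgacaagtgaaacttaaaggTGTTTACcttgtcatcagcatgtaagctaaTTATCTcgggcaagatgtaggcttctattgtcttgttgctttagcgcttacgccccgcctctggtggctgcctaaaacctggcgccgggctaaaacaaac
HOPX start: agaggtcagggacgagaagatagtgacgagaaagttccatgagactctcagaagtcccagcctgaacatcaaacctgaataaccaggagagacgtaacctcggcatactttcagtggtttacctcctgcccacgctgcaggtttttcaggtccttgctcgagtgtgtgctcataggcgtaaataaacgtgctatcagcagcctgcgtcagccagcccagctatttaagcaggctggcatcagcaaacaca
The FOXA match begins 130 bases and the GATA match 100 bases before the shared start. In windows of 300 bases around each start, 6 motifs were searched on both strands, and of 35116 RefSeq promoters 3.42% held the FOXA letters and 10.33% the GATA letters. The other motifs were NKX2-1 CACTTGA (2.48% of promoters), CEBP TTGCGCA (1.94%), AP-1 TGACTCA (4.95%) and TEAD GGAATG (14.03%). None of the 6 was in the windows of the first NKX2-1 start or of the HOPX start. A match says only that these letters are there.

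Libraries differed in how far they can be trusted. The counts of a library summed to 3989287 to 5193390 in PC9, 6200672 to 10062505 in H1975, 1724680 to 4242868 in HCC827 and 3968690 to 8066287 in HCC2935. Libraries of 1 group varied 0.959 to 1.040 times as much as counting noise in PC9 and 0.966 to 1.223 times in H1975, so these libraries barely differed beyond counting. In HCC827 this ratio was 1.206 to 8.764, and in HCC2935 1.177 to 1.828. A region was called where the p of edgeR's quasi-likelihood test, adjusted by Benjamini-Hochberg across the whole table of its line, was under 0.05. Beside them stand the calls with the 3 libraries of a group summed to 1 and the dispersion taken from HCC2935 (summed). That dispersion followed the HCC2935 trend with the level of a region. As a single value over all regions, dispersion was 0.0103 in HCC2935, against 0.0001 in PC9, 0.001 in H1975 and 0.2029 in HCC827. The HCC2935 dispersion is thus too small for HCC827 by construction, and summed p-values of that line are not used. The libraries labelled AZD5153 in H1975 stood apart. Promoters of the 7 epithelial markers summed to 86.4 to 90.8 CPM there against 266 to 285 in DMSO, all 7 lower, and to 249 to 254 in the combo. CPM are counts scaled to the library's sum over tested regions, with edgeR's TMM factors. Whole stretches of chromosomes also shifted together in some contrasts, and values with the median of each 10 Mb stretch removed (regional) are given where they matter.

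In untreated cells, the 4 lines differed widely at the alveolar genes. HCC2935 was highest and PC9 lowest at both NKX2-1 promoter regions, at the 2 matched SFTA3 sites and at the NAPSA region nearest an annotated start, but not at the other NKX2-1 and NAPSA sites. Levels here are CPM over regions matched in all 4 tables, each 502 bases wide, so that levels compare between genes per length. Of 26 matched member sites, 25 differed between the lines, where 86.6% of all 71485 matched regions tested did so. Lines differ in DNA copy number and in how they were sequenced, and neither can be told apart from accessibility here.

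The strongest member site lay 0.7 kb upstream of an annotated SFTA3 start (chr14:36478720-36479221 in the H1975 table). The annotation picks a start inside the gene for it, and the nearest RefSeq start of SFTA3 is 34314 bases away. Its DMSO libraries read 172, 167 and 169 CPM in HCC2935. They read 82.1, 84.4 and 87.6 in H1975, 61.8, 53.0 and 65.4 in HCC827, and 5.07, 5.40 and 2.98 in PC9. No 2 lines overlapped, and even the closest pair differed, HCC827 minus H1975 giving a log2 difference of −0.30 (± 0.12 SE, adjusted p = 0.0314, edgeR). In HCC2935 99.98% of all tested regions were weaker than this site, and in H1975 99.54%.

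At the first NKX2-1 start the levels were 52.3, 47.5 and 51.0 CPM in HCC2935, 39.3, 20.4 and 42.5 in HCC827, 34.8, 27.1 and 30.8 in H1975 and 11.8, 12.2 and 12.6 in PC9. PC9 stood below the other lines, whose neighbours overlapped in part. HCC827 and H1975 did not differ at the threshold (adjusted p = 0.0535), while HCC2935 exceeded HCC827 (adjusted p = 0.0157). The neighbouring NKX2-1 promoter region, the higher of both in PC9 and H1975, read 20.3, 15.2 and 13.9 in PC9 against 38.0, 40.8 and 45.8 in HCC2935, with H1975 at 33.7, 32.1 and 38.4 and HCC827 at 22.5, 16.3 and 26.5. A site 3.6 kb upstream of NKX2-1 was instead highest in H1975, with a mean of 22.0 against 14.2 in HCC2935.

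NAPSA, at a region 2237 bases from its nearest RefSeq start in the H1975 table, was lowest in PC9 (0.845, 0.675 and 0.663 CPM) and highest in HCC2935 (28.9, 28.8 and 21.0), with H1975 at a mean of 22.6 ± 4.43 (SD, n = 3) and HCC827 at 9.86 ± 1.66. The NAPSA regions beside and over the RefSeq start went another way. Over the start PC9 read 7.61, 8.44 and 6.96 and H1975 3.39, 3.96 and 3.69 (H1975 minus PC9 −1.18 ± 0.28 SE, adjusted p = 0.000316), with means of 5.15 in HCC827 and 8.93 in HCC2935. The region beside it had means of 7.38 in PC9 and 5.19 in HCC2935, with H1975 at 4.38 and HCC827 at 3.63, and the lines did not differ there at the threshold (adjusted p = 0.0625).

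The order was another one at other genes. FOXA2 was most open in H1975, at 22.9, 22.8 and 23.6 CPM at a region called here the 3′ part of its start. This start, and the 5′ part named below, is one that the annotation chose inside the gene. The RefSeq gene runs to 22585490 on chromosome 20, outside both parts. HCC827 and HCC2935 lay at means of 13.6 and 13.1, which did not differ at the threshold (adjusted p = 0.951), and PC9 at 3.5. SFTPB, read at a region inside the gene, was also highest in H1975 (24.2, 22.8 and 28.1 CPM) and lowest in PC9 and HCC2935 (means 5.94 and 7.19, adjusted p = 0.355). Near the RefSeq start of SFTPB the order was another one, and with no region matched in all lines it was not tested. H1975 read 2.26, 1.59 and 2.05 there, HCC827 11.9, 17.9 and 7.77, and HCC2935 5.84, 3.1 and 7.48. The CEBPA promoter was highest in PC9 (32.1, 40.5 and 39.1 CPM), and the GATA6 promoter in HCC827 (28.1, 29.4 and 32.9 CPM). GATA6 means in PC9, H1975 and HCC2935 were 19.2, 18.2 and 13.0, and neighbours in that order did not differ at the threshold (adjusted p = 0.258 and 0.154). The strongest region near the FOXA1 start lay just upstream of it and was not annotated to FOXA1. Its DMSO levels were 127.9, 120.2 and 119.2 CPM in HCC2935 and 62.41, 71.74 and 82.3 in HCC827. PC9 read 49.44, 43.91 and 38.12 there and H1975 32.8, 35.88 and 37.73, and these differences were not tested. The FOXA1 site 11.1 kb downstream had means of 18.9 in HCC2935, 9.19 in HCC827, 6.42 in PC9 and 0.974 in H1975.

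HOPX gave the widest ranges. Its promoter read 25.0, 29.3 and 22.9 CPM in HCC2935, 20.6, 19.2 and 17.4 in H1975, 14.4, 11.8 and 14.2 in PC9, and only 0.624, 2.45 and 1.37 in HCC827. A site 46.5 kb upstream had means of 26.5 in HCC2935, 20.5 in H1975, 7.20 in HCC827 and 0.444 in PC9. A site 16.4 kb upstream had means of 19.65 in HCC2935, 11.9 in H1975, 2.465 in HCC827 and 0.648 in PC9. PC9 thus had an open HOPX promoter with both upstream sites near 0, and HCC827 the reverse at the site 46.5 kb away. A further site 14.1 kb upstream had means of 9.45 in HCC2935, 3.77 in PC9, 0.424 in HCC827 and 0.137 in H1975. The HOPX region that the HCC827 table annotates as promoter lies 0.4 kb downstream of another start, and on the scale of that line it read 12.4, 12.7 and 3.37 CPM in DMSO and 9.32, 14.3 and 1.61 in DTP. The promoter region of the other lines is not annotated to HOPX in HCC827, so its DTP change there is not given. It was low in DMSO, but its highest count in any HCC827 library was 84.

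**Figure D1:**
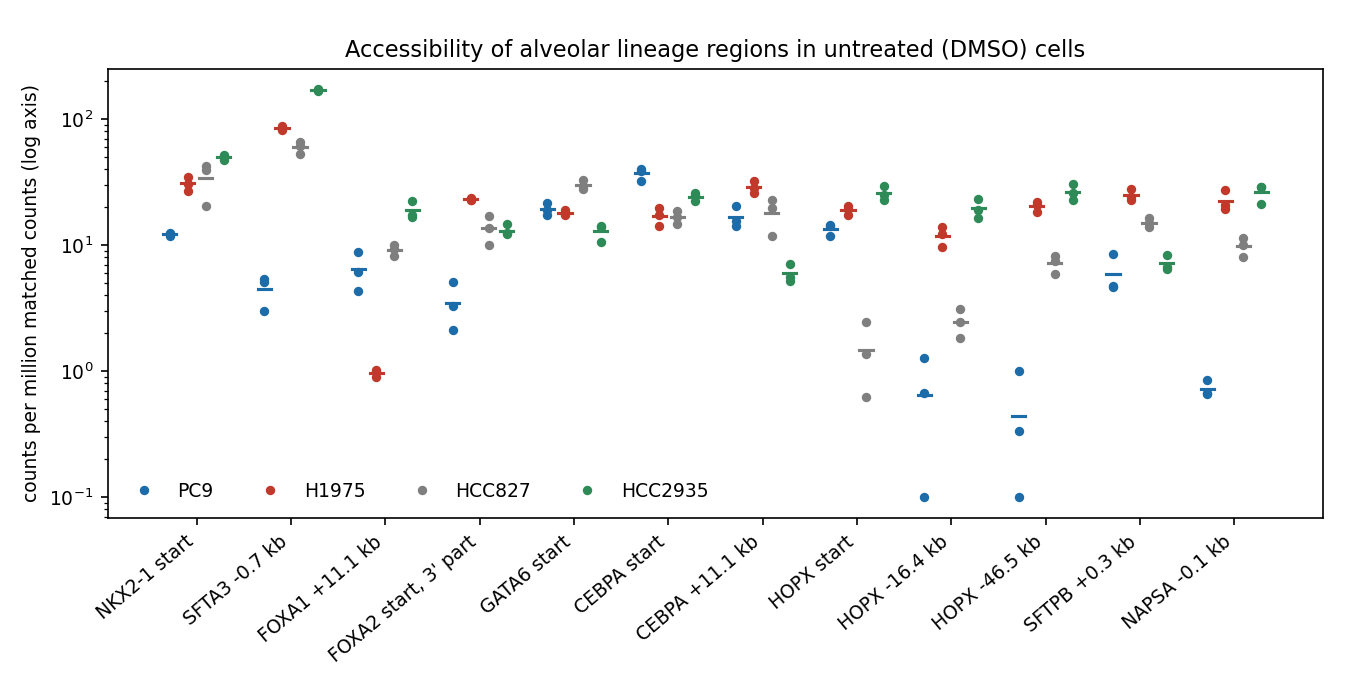
Points are the DMSO libraries of each line and short lines their means, in CPM over matched regions on a log axis (values below 0.1 are drawn at 0.1), for 12 alveolar lineage regions named by gene and distance from the annotated start. The SFTA3 region 0.7 kb upstream runs from a mean of 4.49 in PC9 to 169.5 in HCC2935, while the CEBPA start is highest in PC9.

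SFTPC, the gene most restricted to type II cells, had no region annotated to it, but the full count tables held 14 regions within 1000 bases of either end of the gene. At its first base 5 regions read 0.226 to 7.49 CPM in DMSO libraries. At its last base 9 regions read 0.679 to 12.5, and 7 of these are annotated to the neighbouring gene BMP1. At the first base, 3 regions could be tested. In H1975 with AZD5153 a region there went from 0.928, 2.15 and 1.62 to 2.97, 3.66 and 3.08 CPM (0.99, adjusted p = 0.00201, edgeR) and another by 1.29 at under 2 CPM (adjusted p = 0.0195). The first of these also differed between untreated cells and DTP (−0.98, adjusted p = 0.0363), and no other test at the first base was called. At the last base 2 of 24 tests were called, both higher.

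In the peak lists, a peak overlapped the promoter region in 308 of 327 pairs of library and promoter, namely 78 of 84 in PC9, 104 of 108 in H1975, 54 of 63 in HCC827 and 72 of 72 in HCC2935. Peaks were called per library and to different depths, so these numbers are a description.

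The first question the design poses is what differed between DTP and untreated cells. Within a line, levels are CPM over the tested regions of that line's table, with TMM scaling. In HCC2935 DTP, 32 of 54 member regions were lower and 4 higher, where 18.6% of all regions tested were lower and 18.7% higher. Among the regions of all genes in the annotated table, 21.2% were lower and 23.9% higher. With libraries summed 27 were lower and 2 higher (13.4% and 14.2% of all regions). The members' median log2 change was −0.72 against −0.01 for all regions. In H1975 DTP 19 of 39 were lower and 4 higher (27.0% and 24.9% of all regions), with a median of −0.43 against 0.02. Over the annotated regions of all genes the shares were 36.8% and 25.8%, nearer to those of the members. Summed libraries gave 16 lower and 2 higher (18.7% and 14.3% of all regions). Scaling by library size alone, which lifts the median of all H1975 regions by 0.20 in this contrast, gave 17 lower and 8 higher. In PC9 DTP 7 of 28 were lower and 5 higher (16.4% and 15.4% of all regions), with a median of −0.24 against 0.01. Over annotated regions of all genes the shares were 21.7% and 16.4%. Summed libraries gave 4 and 2 (8.35% and 7.89%). PC9 shares lay nearer to those of all regions than the shares in HCC2935 and H1975. Members near each other share a neighbourhood and are not independent of each other.

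In HCC827 DTP no member was called by edgeR, where 0.0158% of all regions were higher and 0.00607% lower, and 3 of 18 members had an unadjusted p under 0.05. DESeq2 called 1. HCC827 libraries with the same replicate number deviated together, and with the replicate as a block 1 member was higher and none lower, where 2.16% of all regions were higher and 1.72% lower.

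NKX2-1 and SFTA3 were lower in HCC2935 DTP. The first NKX2-1 start read 35.2, 31.6 and 34.1 CPM in DMSO and 17.5, 23.0 and 17.8 in DTP. Every DTP library lay below every DMSO library (log2 change −0.79 ± 0.14 SE, adjusted p = 1.02e-05, edgeR). The neighbouring NKX2-1 promoter region fell from 25.6, 27.2 and 30.7 to 16.5, 18.2 and 14.1 (−0.76). The region over the start shared with SFTA3, whose sequence with the FOXA and GATA letters is given above, changed by −0.75 (adjusted p = 0.00057), with 19.9, 22.4 and 16.6 CPM in DMSO and 12, 11.4 and 11.8 in DTP.

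In the same line the strong SFTA3 site 0.7 kb upstream went from 116, 111 and 113 CPM to 51.7, 54.8 and 49.4, with no overlap (−1.13 ± 0.0985 SE, adjusted p = 1.59e-12). SFTA3 fell at 11 of its 14 regions in HCC2935, NKX2-1 at 3 of 4, and FOXA1, about a megabase away on the same chromosome, at 12 of 15. The lowest SFTA3 values were at 13.7 kb downstream of the annotated start (chr14:36498956-36499457), 22.7, 27.5 and 15.7 against 5.32, 6.29 and 3.05 CPM (−2.15 ± 0.22 SE, adjusted p = 1.68e-10), and 39.2 kb downstream (−2.07). The lowest FOXA1 value was 49.4 kb downstream (chr14:37544371-37544872), at 13.3, 11.8 and 10.9 against 2.47, 2.32 and 3.44 CPM (−2.14 ± 0.26 SE). DMSO and DTP libraries did not overlap at any of these 3 sites. The FOXA1 region over the RefSeq start changed by −0.52, a call lost when summed (adjusted p = 0.0604). It was also lost without any 1 of these libraries: DMSO replicate 1 (0.111), DMSO replicate 2 (0.0557) or DTP replicate 1 (0.102). The change at the stronger region just upstream, not annotated to FOXA1, is not given here. In H1975 a FOXA1 promoter region read 6.18, 5.25 and 6.2 CPM in DMSO and 9.34, 7.71 and 7.84 in DTP (0.49, adjusted p = 0.00688), which was lost when summed (0.207) or without DMSO replicate 2 (0.0676).

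This stretch of chromosome 14 moved as a whole in HCC2935 DTP. The median region of its 10 Mb had a log2 change of −0.32, and of the 737 other regions there 29.0% were lower and 13.8% higher. With regional medians removed, 24 of 54 members in all were lower and 2 higher (16.0% and 15.9% of all regions). NKX2-1 stayed lower (−0.51, adjusted p = 0.00417), and the SFTA3 site 0.7 kb upstream too (−0.85, adjusted p = 2.11e-08). The FOXA1 region over the RefSeq start did not (−0.24, adjusted p = 0.264). DESeq2 called 15 lower and 3 higher in this contrast. Copy number and accessibility of the stretch cannot be told apart.

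H1975 shared only part of this. The first NKX2-1 start read 23.8, 18.4 and 20.2 CPM in DMSO and 20.9, 17.2 and 18.6 in DTP, which overlapped (−0.14, adjusted p = 0.264). The SFTA3 site 0.7 kb upstream fell from 56.1, 57.3 and 57.6 to 35.2, 39.5 and 34.6 (−0.65 ± 0.0715 SE, adjusted p = 9.12e-16). In all, 5 of 11 SFTA3 regions fell in H1975 and 1 rose. The one that rose lay 7.2 kb downstream, at 2.32, 2.83 and 3.37 CPM in DMSO and 6.01, 4.76 and 5.49 in DTP (0.91 ± 0.22 SE, adjusted p = 0.000117; summed 0.0312). In PC9 the SFTA3 site 0.7 kb upstream rose from low levels, 3.81, 4.06 and 2.23 to 8.26, 6.96 and 6.51 CPM (1.12 ± 0.27 SE, adjusted p = 0.000319; summed 0.0279). In HCC827 the values at that site overlapped, 49.3, 41.3 and 60.3 against 33.7, 49.5 and 68.8 (0.02). The DTP change at this site differed between the 4 lines (adjusted p = 2.5e-09, edgeR), as did that at the first NKX2-1 start (0.00159). Over all sites, 15 of 26 members differed in this way, where 39.2% of all matched regions did.

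**Figure D2:**
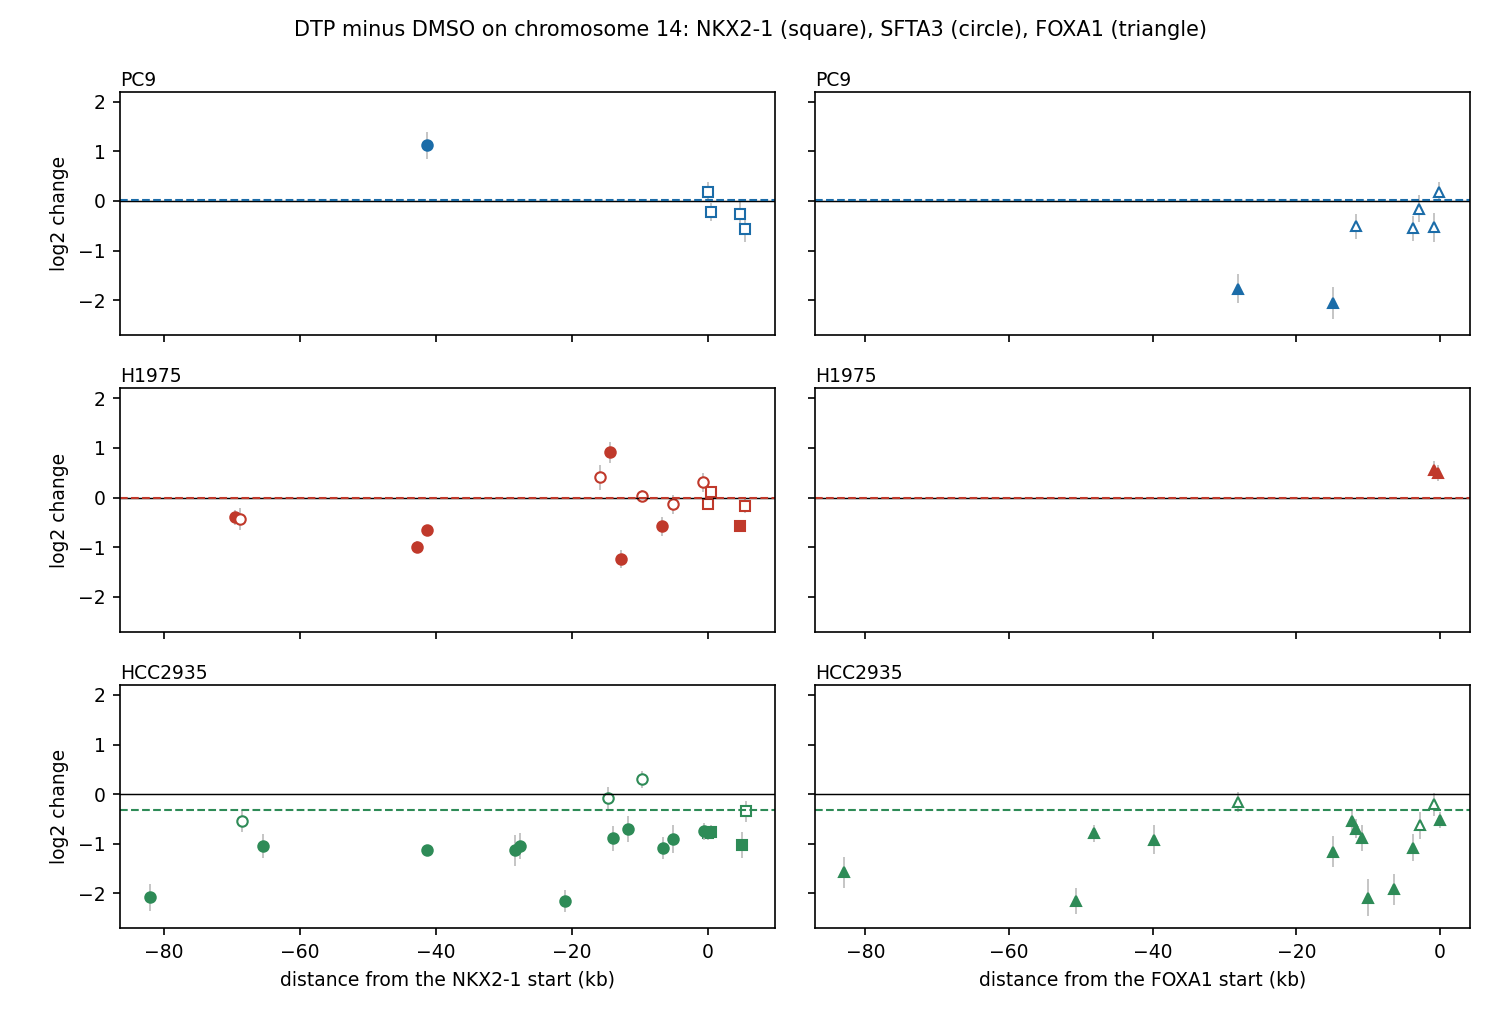
Log2 change in DTP minus DMSO (bar 1 SE, filled where adjusted p is under 0.05) against distance from the NKX2-1 start (left) and the FOXA1 start (right) in kb, for PC9, H1975 and HCC2935; the dashed line is the median change of all regions in the same 10 Mb. In HCC2935 that line lies at −0.32 and most SFTA3 and FOXA1 regions lie below it, and in PC9 the single SFTA3 region is at 1.12.

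FOXA2 changed in H1975. The start meant here is the annotated one inside the gene, and the RefSeq gene runs on to 22585490. The 5′ part of that start (chr20:22584523-22585024) had 27.5, 32.1 and 25.5 CPM in DMSO and 3.33, 3.4 and 4.03 in DTP (−2.98 ± 0.14 SE, adjusted p = 2.74e-56). The region called the 3′ part (chr20:22583979-22584480) lies 92 bases downstream of that start in H1975. It had 15.6, 15.5 and 15.5 against 3.46, 1.7 and 2.13 (−2.69 ± 0.17 SE). At both parts the groups lay far apart, and in all 4 of 5 FOXA2 regions were lower. The surrounding 10 Mb moved the other way, with a median of 0.24.

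FOXA2 did not behave so in the other lines. In HCC2935 the 5′ part read 16.2, 8.86 and 13.5 CPM in DMSO and 12.2, 12.2 and 11.1 in DTP, which overlapped (−0.14, adjusted p = 0.601). In HCC827 it read 14.9, 16.5 and 29.9 against 7.17, 11.7 and 10.6, every DTP library lower, but this missed the threshold (−1.06 ± 0.39 SE, adjusted p = 0.46; 0.0692 with the replicate block). In PC9 DTP another FOXA2 region, 0.1 kb downstream of an annotated start, rose from 0.953, 1.52 and 1.49 to 6.56, 2.32 and 4.00 CPM (1.66 ± 0.39 SE, adjusted p = 0.00016; summed 0.00593); this low region was chosen after its values were seen. The DTP change over the 3′ part of the start differed between lines (adjusted p = 2.81e-08).

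GATA6 moved in opposite directions at its promoter and downstream in HCC2935 DTP. The promoter (chr18:22169198-22169699) rose from 9.61, 7.09 and 9.39 to 16.1, 17.9 and 15.8 CPM (0.92 ± 0.19 SE, adjusted p = 0.000106), and the groups did not overlap. The site 42.3 kb downstream, where DMSO read 8.52, 2.66 and 5.63, fell to 1.33, 0.496 and 1.72 (−2.31 ± 0.40 SE, adjusted p = 1.07e-05); this weak site was chosen after its values were seen. In H1975 the promoter stayed at 11.4 to 13.2 CPM in both groups (0.03, adjusted p = 0.866). In PC9 it read 16.2, 14.2 and 12.9 against 18.0, 22.7 and 19.3 (0.48, adjusted p = 0.0056), a call lost when summed (0.176) or without DMSO replicate 3 (0.0605) or DTP replicate 2 (0.0619). The GATA6 site 52.7 kb downstream fell in PC9 from 25.7, 26.6 and 28.5 CPM to 22.8, 20.6 and 14.8 (−0.48, adjusted p = 0.00101), again lost when summed (0.102) or without DTP replicate 3 (0.0847). In H1975 the site 79.6 kb downstream fell from 11.1, 11.7 and 12.5 to 4.48, 6.24 and 4.48 (−1.21 ± 0.15 SE, adjusted p = 1.4e-12). At both sites the groups did not overlap. In HCC827 no GATA6 region was called, with −0.33 at the promoter and 0.41 at the site 52.7 kb downstream.

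The CEBPA promoter gave no DTP call in any of the 3 lines that annotate it, with changes of −0.24 in PC9, −0.11 in H1975 and −0.19 in HCC2935. Regions downstream of the gene were lower. The region 11.1 kb downstream read 15.2, 10.7 and 11.7 CPM in PC9 DMSO and 4.13, 3.87 and 4.25 in DTP (−1.58 ± 0.22 SE, adjusted p = 1.08e-10). In H1975 it read 17.8, 21.9 and 18.6 against 8.32, 9.53 and 7.95 (−1.18 ± 0.12 SE, adjusted p = 6.82e-18). Neither line overlapped, whereas HCC827 did, at 9.46, 15.3 and 21.1 against 7.17, 3.35 and 9.97 (−1.1, adjusted p = 0.594; 0.0953 with the block). The region 12.2 kb downstream changed by −2.85 ± 0.27 SE in H1975, from 6.96, 7 and 7.55 CPM to 1.66, 0.794 and 0.560, and by −2.19 in PC9. In PC9, 4 of 6 CEBPA regions were lower. Among them was the region 8.9 kb downstream, from 7.31, 6.59 and 7.44 CPM to 3.4, 4.90 and 2.75 (−0.95 ± 0.26 SE, adjusted p = 0.00213; summed 0.0551).

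At HOPX, regions of the same line also went both ways. In H1975 DTP the site 46.5 kb upstream (chr4:56728442-56728943) fell from 15.2, 14.3 and 12 to 2.17, 2.38 and 2.69 CPM (−2.50 ± 0.18 SE, adjusted p = 2.07e-31). The site 16.4 kb upstream (chr4:56698250-56698751) rose from 8.35, 9.42 and 6.34 to 12.9, 15.2 and 13.3 (0.79 ± 0.14 SE, adjusted p = 1.61e-07; regional 0.52, adjusted p = 0.00078). The HOPX promoter read 14.1, 13.1 and 11.5 against 15.0, 15.5 and 14.9 (0.24, adjusted p = 0.0742). The 2 upstream sites thus changed in opposite directions in the same libraries, with no overlap at either. The stretch around HOPX had a median log2 change of 0.28 in PC9 and H1975, 0.22 in HCC827 and 0.47 in HCC2935.

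In HCC827 the site 16.4 kb upstream read 2.49, 1.91 and 1.69 CPM in DMSO against 14.3, 22.6 and 38.0 in DTP. In DMSO 0.998% of tested regions lay below it, and it passed the filter on low counts through its treated libraries, so its rise is a description. The groups lay far apart, but DTP libraries differed among themselves, and the log2 change of 3.61 ± 0.61 SE had an adjusted p of 0.0948 by edgeR. The adjusted p was 9.14e-05 with the replicate block, 0.0459 with the regional median removed (3.31) and 0.00304 by DESeq2. Since its treated libraries let the site in, these values do not count as support for the rise. The site 46.5 kb upstream read 5.98, 6.36 and 5.48 against 11.5, 8.39 and 21.2 there (1.24, adjusted p = 0.697; 0.131 with the block). In HCC2935 the site 16.4 kb upstream changed by 0.55 (adjusted p = 0.00675), which was lost when summed (0.0597) or with the regional median removed (0.11, 0.652). HOPX sites 14.5 kb downstream and 14.1 kb upstream rose there by 0.87 (adjusted p = 0.00561; regional 0.42, 0.198) and 0.60 (adjusted p = 0.0418; regional 0.15, 0.655; summed 0.128; DESeq2 0.0732), the latter lost also without DMSO replicate 1 (0.0691), 2 (0.142) or 3 (0.0589) or DTP replicate 2 (0.204). DTP change between lines differed at the site 46.5 kb upstream (adjusted p = 5.53e-10) and at 16.4 kb (1.87e-06), the latter no longer without HCC827 (0.208).

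**Figure D3:**
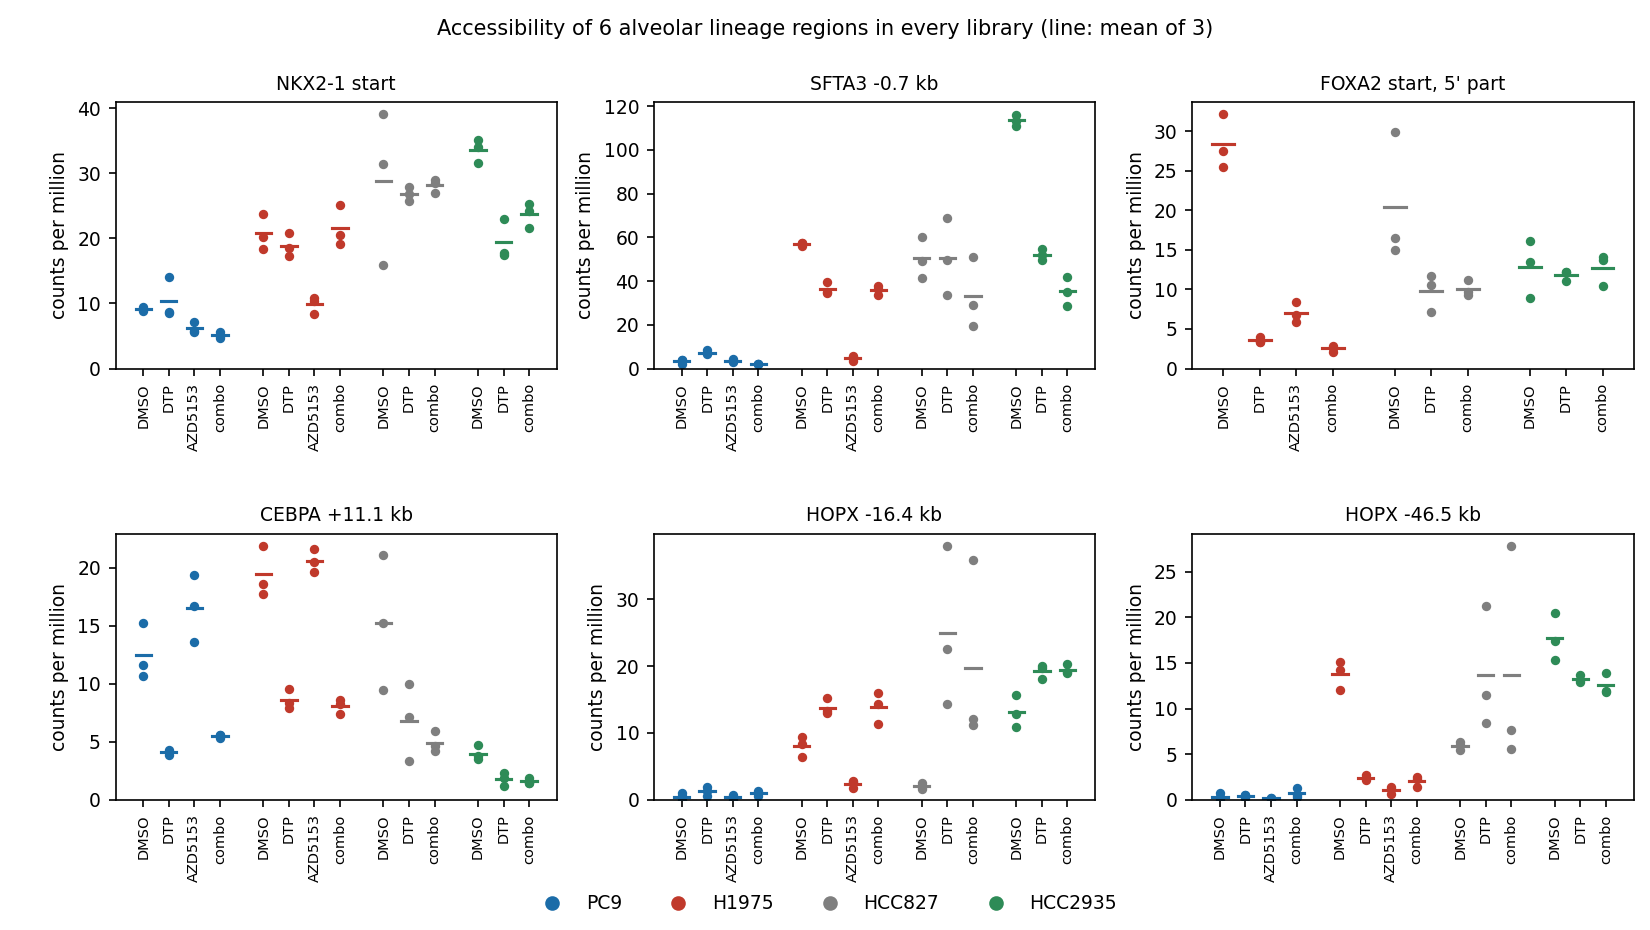
Level (CPM) in every library of 6 member regions, grouped by line and treatment, with short lines for group means and axes that start at 0 (in lines without an annotated region, the matched region of the full count table is drawn where there is one). The SFTA3 site falls in HCC2935 DTP and to under 6 in the H1975 AZD5153 libraries, FOXA2 falls in H1975, CEBPA falls in PC9 and H1975 DTP, and the HOPX site 16.4 kb upstream rises in HCC827 DTP.

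The SFTPB region and 1 of 2 NAPSA regions fell in H1975 DTP. The SFTPB region (chr2:85662722-85663223) lies inside the gene, 4976 bases from the nearest RefSeq start. It read 16.5, 15.5 and 18.5 CPM in DMSO and 5.63, 6.58 and 6.27 in DTP, with no overlap (−1.44 ± 0.14 SE, adjusted p = 1.22e-20). In HCC827 it read 12, 10.8 and 15.2 against 10.8, 6.71 and 7.40 (−0.62, adjusted p = 0.947). The NAPSA region 2237 bases from its RefSeq start read 18.9, 14.1 and 12.7 in H1975 DMSO and 5.37, 6.12 and 6.94 in DTP (−1.28 ± 0.14 SE, adjusted p = 3.32e-16). In HCC2935 it read 19.4, 19.2 and 14.1 against 8.93, 11.9 and 8.59 (−0.84 ± 0.19 SE, adjusted p = 0.00046; DESeq2 0.0504). DTP libraries lay below DMSO libraries in both lines. The NAPSA region 276 bases from the RefSeq start in H1975 changed by 0.05 (adjusted p = 0.894). Of 8 promoters of other type II genes 3 were higher and 1 lower in H1975 DTP (25.8% and 36.8% of annotated regions). In PC9 a NAPSA site 3.3 kb upstream read 5.72, 6.34 and 5.21 against 8.26, 8.25 and 11.8 (0.71, adjusted p = 0.00663), a call lost when summed (0.126) or without DTP replicate 3 (0.111).

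Other genes of the lung epithelium, taken as lists that hold none of the 10 genes, had calls in both directions in DTP. Of regions of alveolar type II genes (such as SFTPD, ABCA3 and LAMP3), 4 of 44 were higher and 15 lower in PC9, 9 and 16 of 36 in H1975, and 8 and 10 of 30 in HCC2935. Of regions of type I genes (such as CAV1, CAV2 and EMP2), 12 of 51 were higher and 10 lower in PC9, 11 and 19 of 41 in H1975, and 21 and 10 of 61 in HCC2935. Of the 11 type I genes listed, 9 had a region in PC9, 8 in H1975 and 9 in HCC2935. The type I genes AGER and PDPN had no promoter region in any line. Of regions of lung and epithelial factors (such as SOX9, ELF3 and GRHL2), 13 of 82 were higher and 29 lower in PC9, 37 and 41 of 104 in H1975, and 16 and 21 of 79 in HCC2935. Among annotated regions of all genes, 16.4% were higher and 21.7% lower in PC9. In H1975 these shares were 25.8% and 36.8%, and in HCC2935 23.9% and 21.2%. Whether the lists differed from these shares was not tested. HCC827 had no call in these lists. Their median log2 changes lay between −0.17 and 0.15 in these 3 lines.

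The promoters of the 7 epithelial markers summed to 199 to 219 CPM in H1975 DTP (266 to 285 in DMSO), 205 to 224 in PC9 DTP (221 to 230) and 207 to 238 in HCC2935 DTP (232 to 244). In H1975 4 of the 7 were lower and 1 higher (36.8% and 25.8% of annotated regions). The part of this in the member results was not tested. In bulk libraries, fewer cells with an open region and less signal per cell cannot be told apart.

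The second question is what 3 days of AZD5153 did to the same regions, in untreated cells and in DTP. In H1975 untreated cells, 23 of 39 members were lower with AZD5153 and 7 higher (31.4% and 26.7% of all regions, 43.2% and 29.0% of annotated regions). Summed libraries gave 21 and 4 (24.4% and 16.9%), and the members' median was −0.76 against −0.04. HOPX fell at 5 of 5 regions, SFTA3 at 9 of 11 with 2 higher, NKX2-1 at 3 of 4 and FOXA2 at 3 of 5 with 1 higher. In PC9 4 of 28 were lower and 2 higher (14.6% and 11.2% of all regions, 18.2% and 14.3% of annotated regions), with 1 and 0 when summed (7.4% and 4.19%). Leaving out DMSO replicate 2, DMSO replicate 3 or AZD5153 replicate 3 reduced the PC9 calls from 6 to 3. All H1975 values rest on the AZD5153 libraries that stood apart, in which the epithelial marker promoters and the chromosome 14 stretch (median −0.30) were also lower. Their part in the member results was not tested.

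In those H1975 libraries the SFTA3 site 0.7 kb upstream read 5.55, 3.66 and 5.13 CPM against 56.1, 57.3 and 57.6 in DMSO (−3.54 ± 0.11 SE, adjusted p = 6.72e-83; regional −3.24). The HOPX promoter, whose sequence is given above, read 1.03, 1.39 and 1.14 against 14.1, 13.1 and 11.5 (−3.44 ± 0.22 SE, adjusted p = 6.39e-37). No AZD5153 library had a peak there. The HOPX site 46.5 kb upstream read 0.645, 1.22 and 1.37 (−3.65), and the site 16.4 kb upstream 2.71, 2.79 and 1.71 (−1.77). At all 4 sites every AZD5153 library lay below every DMSO library.

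The first NKX2-1 start went to 10.8, 10.4 and 8.44 CPM in the H1975 AZD5153 libraries (−1.08 ± 0.12 SE, adjusted p = 2.92e-15; regional −0.78), and FOXA2 at the 5′ part of its start to 8.39, 6.79 and 5.93 (−2.02). The NAPSA region 2237 bases from its RefSeq start went to 5.16, 4.88 and 5.82 (−1.49). These 3 fell below all DMSO libraries, but SFTPB did not, at 17.7, 14.1 and 13.8 against 16.5, 15.5 and 18.5 (−0.14 ± 0.11 SE, adjusted p = 0.275). The GATA6 promoter was higher, at 17.8, 19.2 and 18.2 against 13.0, 12.2 and 11.5 (0.59 ± 0.12 SE, adjusted p = 3.51e-06; summed 0.0354). FOXA1 had no call at its 2 regions.

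In untreated PC9 cells the strongest change with AZD5153 was at FOXA1, 26.8 kb downstream, from 8.9, 6.08 and 8.43 CPM in DMSO to 2.15, 2.55 and 3.28 (−1.53 ± 0.28 SE, adjusted p = 8.6e-07; summed 0.00206). The groups did not overlap, and it was the single PC9 member called with libraries summed; this site and the CEBPA site 3.6 kb downstream were chosen after their values were seen. CEBPA fell 3.6 kb downstream, from 4.77, 6.85 and 6.7 to 3.11, 3.25 and 3.05 (−0.98, adjusted p = 0.00352; summed 0.086), and at its promoter by 0.38, with overlap (adjusted p = 0.00798; summed 0.278). The first NKX2-1 start read 7.18, 5.8 and 5.63 against 8.9, 9.13 and 9.43 (−0.56, adjusted p = 0.0364; summed 0.287), a call lost without any 1 of 5 libraries. The 2 regions that were higher, CEBPA 11.1 kb downstream (0.42) and FOXA2 0.1 kb downstream (1.16), were not called when summed (0.347 and 0.111). The SFTA3 site 0.7 kb upstream changed by 0.08 there.

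Counts for the other lists in the H1975 AZD5153 libraries stand beside 43.2% lower and 29.0% higher among annotated regions of all genes. Whether a list differed from these shares was not tested. Regions of type II genes were lower at 18 of 36 and higher at 9. Those of type I genes were lower at 24 of 41 and higher at 4, and those of the factors lower at 52 of 104 and higher at 29. Regions of epithelial markers were lower at 48 of 65 and higher at 7, and those of airway markers lower at 15 of 28 and higher at 4. Regions of endothelial markers were lower at 24 of 41 and higher at 10, those of fibroblast markers lower at 1 of 10 and higher at 5, and those of leukocyte markers lower at 3 of 8 and higher at 5. Of the 5 leukocyte markers only CD68 had a promoter region.

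With AZD5153 in DTP, 2 of 54 members were lower in the HCC2935 combo than in DTP without it and 3 higher (6.4% and 1.9% of all regions, 9.59% and 3.28% of annotated regions), 1 and 1 when summed (3.01% and 0.317%). In H1975 2 of 39 were lower and 5 higher (9.48% and 11.5% of all regions, 10.6% and 22.0% of annotated regions), 0 and 1 when summed (1.3% and 0.992%). Scaling by library size gave 6 lower and 5 higher there. In PC9 4 of 28 were lower and 5 higher (11.7% and 10.6% of all regions, 13.7% and 15.5% of annotated regions), 2 and 0 when summed (4.13% and 1.72%), and 4 calls in all without DTP replicate 1. In HCC827 edgeR called none, where 0.0% of all regions were called either way. There 1 member had an unadjusted p under 0.05, and DESeq2 called 0.

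The strong SFTA3 site shows how the lines differed here. In PC9 the combo took it from 8.26, 6.96 and 6.51 CPM to 1.95, 1.86 and 1.86 (−1.92 ± 0.31 SE, adjusted p = 4.85e-08; summed 0.00049), below all DTP libraries. In H1975 it stayed at 36.3, 33.8 and 37.9 (−0.02, adjusted p = 0.922). In HCC2935 it read 35.0, 42.0 and 28.8 against 51.7, 54.8 and 49.4 in DTP (−0.55 ± 0.10 SE, adjusted p = 0.000379; summed 0.0617). In HCC827 it read 19.5, 29.0 and 50.8 against 33.7, 49.5 and 68.8 in DTP. The groups overlapped, and each combo library lay below the DTP library of its number (−0.60, adjusted p = 1; −0.62 with the replicate block, adjusted p = 0.445).

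The first NKX2-1 start fell in the PC9 combo from 8.75, 8.51 and 14 CPM to 4.63, 5.04 and 5.59, with no overlap (−1.03 ± 0.22 SE, adjusted p = 7.09e-05; summed 0.0296). The neighbouring promoter region went from 12.9, 9.02 and 9.01 to 8.29, 8.22 and 4.53 (−0.55, adjusted p = 0.0356), a call lost when summed (0.297), by DESeq2 (0.262) or without DTP replicate 1 (0.331) or combo replicate 3 (0.359). In the other 3 lines the groups overlapped at the first start, with changes of 0.21 in H1975, 0.07 in HCC827 and 0.28 in HCC2935. FOXA2 over the 3′ part of its start rose in the PC9 combo from 2.92, 3.35 and 1.75 to 5.37, 8.48 and 4.53 (1.19 ± 0.30 SE, adjusted p = 0.000903), a call lost when summed (0.051) or without combo replicate 2 (0.0519). In H1975 the 5′ part stayed low at 2.62, 2.87 and 2.14 (−0.51, adjusted p = 0.115).

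In the HCC2935 combo the lowest value was at a HOPX site 60.6 kb upstream (chr4:56742529-56743030), 13.3, 12.7 and 14.9 CPM in DTP against 5.02, 7.06 and 4.83 (−1.24 ± 0.21 SE, adjusted p = 4.61e-05; summed 0.00122). In the H1975 combo an SFTA3 site 5.5 kb downstream (chr14:36507137-36507638) rose from 4.74, 3.63 and 3.58 to 8.66, 7.61 and 7.77 (1.01 ± 0.17 SE, adjusted p = 8.16e-07; summed 0.0368). Its DMSO libraries had 10.2, 9.82 and 8.09, which overlap those of the combo. The HOPX promoter went down in the H1975 combo, from 15.0, 15.5 and 14.9 to 9.31, 10.6 and 11.5 (−0.53, adjusted p = 0.000258; summed 0.301). GATA6 79.6 kb downstream rose there from 4.48, 6.24 and 4.48 to 8.66, 7.36 and 8.56 (0.69, adjusted p = 0.00057; summed 0.181). FOXA1 10.5 kb downstream rose in the HCC2935 combo from 6.65, 10.4 and 10.5 to 16.2, 16.3 and 14.9 (0.78 ± 0.18 SE, adjusted p = 0.00325; summed 0.046), but not without DTP replicate 1 (0.053). In PC9 the HOPX promoter had 7.53, 11.3 and 10.3 in DTP and 16.3, 13.3 and 13.6 in the combo (0.58, adjusted p = 0.00711), a call lost when summed (0.208) or without DTP replicate 1 (0.105) or combo replicate 1 (0.076).

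GATA6 52.7 kb downstream rose in the combo of both lines with an AZD5153 arm. It read 22.8, 20.6 and 14.8 CPM in PC9 DTP and 26.1, 27.3 and 25.8 in the combo (0.44, adjusted p = 0.00397; summed 0.213). In H1975 it went from 22.5, 26.5 and 26 to 32.4, 31 and 32.4 (0.35, adjusted p = 0.000747; summed 0.368). The GATA6 promoter was lower in the H1975 combo (−0.33, adjusted p = 0.0409; summed 0.568), a call lost without any 1 of 5 libraries. The SFTA3 site 25.9 kb downstream was higher in the H1975 combo, at 5.77, 6.86 and 6.08 against 3.84, 2.95 and 3.58 (0.85, adjusted p = 0.000322), and not when summed (0.162). Several other calls in the combo were lost when summed and without at least 1 library, namely CEBPA 0.6 kb downstream (0.78) and FOXA1 10.5 kb downstream (0.78) in PC9, and FOXA1 2.5 kb downstream (0.89) and SFTA3 4.4 kb from its start (0.81) in HCC2935.

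Whether AZD5153 acted otherwise in DTP than in untreated cells was tested as the difference of both changes. In H1975 it differed at 30 of 39 members, 24 of them with the higher value in DTP and 6 with the lower (24.4% and 18.2% of all regions, 40% and 19.8% of annotated regions), 20 and 2 when summed (16.0% and 8.09%). Library size scaling gave 22 and 12, and removal of regional medians 22 and 7 (21.8% and 15.9%). The difference was 3.52 ± 0.14 SE at the SFTA3 site 0.7 kb upstream (adjusted p = 9.86e-64), 2.91 at the HOPX promoter and 1.29 at the first NKX2-1 start. At the GATA6 promoter it was −0.92 (adjusted p = 1.39e-06; summed 0.0308). In PC9 it differed at 5 of 28, 4 higher and 1 lower (7.32% and 6.46% of all regions, 10.8% and 8.1% of annotated regions), at 2 when summed (1.85% higher and 1.77% lower over all regions), and at 3 without DMSO replicate 3. The lower one was the SFTA3 site 0.7 kb upstream (−2.01 ± 0.45 SE, adjusted p = 0.000293, summed 0.0253), so that the difference had opposite signs in the 2 lines. With AZD5153 this site fell in untreated cells in H1975 and in DTP in PC9, and rose clearly in neither line.

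**Figure D4:**
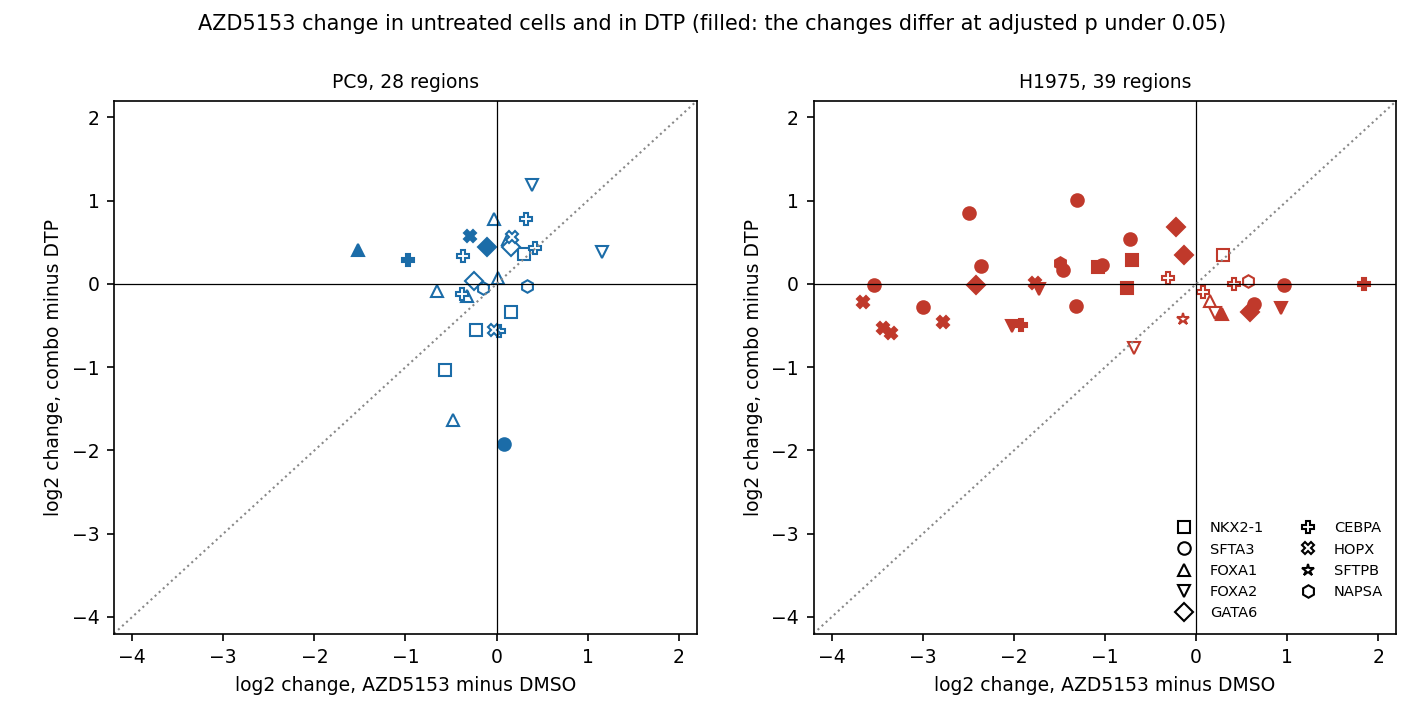
Each point is 1 member region, by its log2 change with AZD5153 in untreated cells (x) and in DTP (y), in PC9 and H1975; shapes give the gene, filled points differ between both settings at an adjusted p under 0.05, and the dotted line marks equal change. In H1975 regions reach from −3.65 to 1.85 along x while they lie between −0.77 and 1.01 along y, and in PC9 the filled circle is the SFTA3 site at 0.08 and −1.92.

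Over the 14 group means, the promoter whose level followed the first NKX2-1 start most closely was that annotated to SFTA3 (Pearson r = 0.957 over 12328 promoters compared). It is the site 0.7 kb upstream of an annotated start, 34360 bases from the nearest RefSeq start in the PC9 table. AHNAK2 (0.919), YY1 (0.91), EML1 (0.901) and MIR4521 (0.895) came next. Points share lines, and within lines the values were 0.823, 0.805, 0.6, 0.728 and 0.187. Of the 50 promoters most like it, 28 lay on chromosome 14, which holds 3.07% of those compared, so these correlations follow the chromosome as well as the gene. Among the members FOXA1 ranked 658 (0.55), FOXA2 1047 (0.44), HOPX 3003 (0.07), GATA6 5074 (−0.18) and CEBPA 11627 (−0.77). Within lines these were −0.11, −0.24, 0.46, −0.56 and −0.09.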

How the data were processed

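ATAC-seq of 42 libraries in 14 groups of 3 was analysed from deposited tables of read counts per region, 1 table and 1 annotated subset for each line. Per the labels, the submitters' processing notes name BWA 0.7.17, SAMtools 1.9, deepTools 3.4, MACS2 2.2.6, featureCounts 2.0.0 and ChIPseeker 1.29.1 with hg38, with settings not given in the sources used here. The count values are raw counts as deposited. The deposited peak lists, 1 for each library, hold the −log10 q value and the fold enrichment that MACS2 gave the authors for each peak; they were used only to say where a peak overlapped a promoter region.

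Counts were fitted per line over all regions with edgeR 4.0.16 (TMM, filterByExpr, quasi-likelihood F test, R 4.3.3), with Benjamini-Hochberg adjustment at 0.05. DMSO was the control for DTP and for AZD5153, and DTP for the combo, so these contrasts share libraries. Baseline and the DTP change between lines were fitted on regions matched in the 4 tables at a reciprocal overlap of at least 50%. All regions are 502 bases wide, and a promoter region lies within 1000 bases of the start of the transcript that the annotation chose. Regional values come from a refit. It removed, library by library, the median deviation of the regions in each 10 Mb bin with at least 50 regions. Alternatives were DESeq2 1.42.0, limma 3.58.1 voom, library size scaling, filters, summed libraries, a replicate block and leaving out each library. Same-numbered libraries deviated together in HCC827, with correlations of 0.257 to 0.857 against −0.736 to 0.580 between different numbers. They did not in PC9 (−0.027 to 0.019), H1975 (−0.055 to 0.024) or HCC2935 (−0.176 to 0.293). The labels name no pairing. Replicate 3 had the most counts in each HCC827 group, so pairing and depth cannot be told apart. Fits were tested on simulated data. Gene IDs matched RefSeq for 21583 of 21599, and promoter sequences (GRCh38.p14) for 8 of the 10 genes.

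Named regions were each gene's highest region within 1000 bases of the start, the 3 largest rises and falls among calls whose groups did not overlap and whose level was above the median, the 3 other matched regions with the widest baseline range, and the 5 promoters most like NKX2-1. A region named in 1 line or contrast is also given in others. Further regions were chosen after their values were seen. The 10 genes and all lists (type II, type I, factors, epithelial, airway, endothelial, fibroblast, leukocyte) were chosen with earlier results of these data known.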

Additional observations from a re-analysis of the deposited data

Results flagged for a closer look

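The results listed here are those where a test of the difference itself found unequal changes between lines or between drug settings; with 3 libraries per group no single library was tested for standing apart. The DTP change differed between the 4 lines by edgeR's quasi-likelihood test with Benjamini-Hochberg adjustment at 13 named sites. The adjusted p was 0.00159 at the first NKX2-1 start, 0.000181 at its neighbour and 2.5e-09 at the SFTA3 site 0.7 kb upstream. It was 0.000144 at a FOXA1 promoter region 677 bases from the RefSeq start in the PC9 table, not the region over that start. For the 3′ part of the annotated FOXA2 start it was 2.81e-08. The GATA6 start had 0.00135 and the GATA6 site 52.7 kb downstream 0.00646. At HOPX it was 4.84e-05 at the start, 0.00412 at 14.1 kb, 1.87e-06 at 16.4 kb and 5.53e-10 at 46.5 kb upstream. It was 0.000899 at the NAPSA region 2237 bases from its RefSeq start in H1975, and 0.0294 at the SFTPB region inside the gene. The NAPSA regions beside and over the RefSeq start did not differ at the threshold (0.723 and 0.104).

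The calls at HOPX rested in part on HCC827, whose libraries were the noisiest. Without HCC827 the adjusted p was 0.312 at the HOPX start, 0.0649 at 14.1 kb and 0.208 at 16.4 kb upstream. Without HCC827 DTP replicate 3 it was 0.0733 at 14.1 kb, and without H1975 DMSO replicate 3 it was 0.0513 at SFTPB.

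The AZD5153 change in DTP differed from that in untreated H1975 cells by a log2 difference of 3.52 at the SFTA3 site 0.7 kb upstream, 3.35 at the SFTA3 site 25.9 kb downstream and −0.98 at the SFTA3 site 8.6 kb downstream, the latter no longer without DMSO replicate 3 (adjusted p = 0.0621, edgeR). At HOPX it was 2.91 at the promoter and 3.43 at 46.5 kb upstream. It was 0.71 at the second NKX2-1 start region, 1.51 at the 5′ part of the annotated FOXA2 start and −1.22 at a FOXA2 site 0.8 kb downstream. The GATA6 promoter had −0.92, and the NAPSA region 2237 bases from its RefSeq start 1.75. These values share the H1975 AZD5153 libraries that stood apart. In PC9 it was −2.01 at the SFTA3 site, 0.87 at the HOPX promoter and 0.55 at the GATA6 site 52.7 kb downstream. With libraries summed, calls were lost in PC9 at GATA6 (adjusted p = 0.404) and HOPX (0.276), and in H1975 at the FOXA2 site 0.8 kb downstream (0.0855) and the SFTA3 site 8.6 kb downstream (0.177; DESeq2 0.232). The PC9 HOPX call was also lost without DTP replicate 1 (0.0729), combo replicate 1 (0.055) or AZD5153 replicate 1 (0.11), and the GATA6 call without DTP replicate 3 (0.161) or DMSO replicate 3 (0.0502).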

How the results depend on the processing

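Counts of called member regions kept within 1.5 times of the reported ones under the alternatives not named here, and no named value changed direction. A stricter filter (mean of at least 50 counts), which tests fewer regions, left 2, 1 and 1 calls in PC9 DTP, combo and AZD5153 and 0 in the PC9 difference of AZD5153 changes, 12, 15 and 17 in H1975 DTP, AZD5153 and the difference, 14 and 2 in HCC2935 DTP and combo, 7 at baseline and 6 for the DTP change between lines. Summed libraries gave 6, 2, 1 and 2 in the PC9 contrasts, 1 in H1975 combo, 5 and 1 in HCC827 DTP and combo (by construction, with a dispersion below that of HCC827), and 2 in HCC2935 combo. DESeq2 gave 4, 1 and 2 in PC9 combo, AZD5153 and difference, 4 in H1975 combo, 1 in HCC827 DTP, and 18 and 2 in HCC2935 DTP and combo. Library size scaling gave 11 in H1975 combo. No filter gave 2 in the PC9 difference and 1 in HCC827 DTP. The replicate block and removal of regional medians each gave 1 in HCC827 DTP, and the block changed no other count by this measure. Requiring a peak over at least 50% of a promoter left 187 pairs. For the filter the number tested is the construction; for the others the cause was not tested.

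Leaving out 1 library gave 9 to 13 calls in PC9 DTP, 4 to 9 in PC9 combo, 3 to 4 in PC9 AZD5153, 3 to 5 in the PC9 difference, 21 to 24 in H1975 DTP, 5 to 7 in H1975 combo, 27 to 31 in H1975 AZD5153, 28 to 31 in the H1975 difference, 0 to 0 in both HCC827 contrasts, 24 to 35 in HCC2935 DTP, 3 to 7 in HCC2935 combo (3 without DTP replicate 1 or combo replicate 2), 25 to 26 at baseline and 12 to 16 for the DTP change between lines. Of the values of named sites under all alternatives, 2333 kept their side of the threshold, 131 lost the call and 27 gained one.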
